A study of Homo sapiens with 15 samples.

Results

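The genes that build and control epithelial cell junctions were followed in KPL4 cells, a human breast adenocarcinoma line with amplified HER2. The set holds 46 genes chosen by symbol from a list of cadherins and catenins (4 genes), desmosomal genes (11), claudins (6), other tight junction proteins (7), polarity and membrane traffic genes (8), epithelial transcription and splicing regulators (6), and nectins, EPCAM and epiplakin (4). All 46 were found among the 60664 gene identifiers of the count table, and 44 passed the filter on low counts, since DSG3 and PKP1 did not. The rule that names them used no measured value, but the set was chosen with earlier results of these data known. The study compared 5 groups of 3 libraries. In control cells estrogen receptor β (ERβ, encoded by ESR2) was endogenous, knockout cells had lost ERβ, and add-back cells were knockout cells that carried transfected ERβ. These 3 groups grew in Ham's F12 medium with 7% serum, HEPES, insulin and hydrocortisone. The vehicle and LY500307 groups were add-back cells moved to medium free of phenol red, with 1% of dextran-coated charcoal-treated serum, for 72 h. They then received either DMSO or the ERβ agonist LY500307 at 200 nM and stayed in that medium for a further 24 h. That medium held HEPES, insulin and hydrocortisone at the same concentrations as the medium of the first 3 groups. The labels do not say whether a line was 1 clone or a pool, nor whether replicates were separate cultures, so p-values measure the spread between these libraries, which may be technical.

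Epithelial cells are held together by 3 kinds of contact along their lateral membranes. Adherens junctions join cadherins to the actin cytoskeleton through catenins, desmosomes join desmogleins and desmocollins to keratin filaments through plakoglobin, plakophilins and desmoplakin, and tight junctions seal the space between cells with claudins and occludin, which zonula occludens proteins tie to actin. Polarity complexes place these contacts and keep the apical and basolateral membranes apart, and in breast cancer the loss of junction genes is a known feature of the passage from an epithelial to a mesenchymal state.

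Library totals ran from 12614050 to 19390386 counts, which limits the precision of genes with few counts. Levels are given in CPM (counts scaled to a common library total), adjusted between libraries by edgeR's TMM factors, and are not comparable between genes of different length. A gene is called where edgeR's quasi-likelihood test gave p under 0.05 after Benjamini-Hochberg adjustment across all 19516 genes tested, and fold changes are log2 values ± SE of the fit. ESR2 had 5.76 ± 0.867 CPM in control libraries, and this became 4.41 ± 1.36 CPM with the knockout and 32.8 ± 1.94 CPM with the add-back (SD, n = 3), and the knockout against control difference was not called (log2 fold change -0.38 ± 0.17, adjusted p = 0.0796). The labels do not give the edited site, and RNA from outside it does not check the knockout. Luminal mammary markers were all present (8 of 8 over 1 CPM on average), with a summed level of 3172 to 3299 CPM in control, 2816 to 2993 in knockout, 3641 to 3824 in add-back, 4398 to 4629 in vehicle and 4564 to 4684 in LY500307 libraries. In knockout against control 3 of the 8 were called higher and 2 lower, where 46% of all genes tested were called. In add-back against knockout 5 were called higher and 0 lower (19.6% of all genes), and in add-back against control 7 higher and 1 lower (45.8%). Vehicle against add-back gave 4 higher and 2 lower (48.1%), and LY500307 against vehicle 1 higher and 1 lower (7.12%). The part of the luminal markers in the results below was not tested, and in bulk libraries fewer cells of a type and less RNA per cell cannot be told apart. Of the 6 basal markers 2 were over 1 CPM on average (TP63 and ACTA2) and KRT5 and KRT14 were at 0 in every library. Their sum was 1.59 to 1.79 CPM in control, 1.71 to 2.27 in knockout, 1.41 to 1.68 in add-back, 3.34 to 3.84 in vehicle and 3.50 to 3.96 in LY500307 libraries. TP63 was called higher in knockout against control (1.57 ± 0.47, adjusted p = 0.01), add-back against control (1.68 ± 0.46, adjusted p = 0.00517) and vehicle against add-back (1.72 ± 0.29, adjusted p = 5.41e-05). The other of the 2 basal markers tested was called lower in add-back against control (-0.74). That call was lost with the offsets for GC content and transcript length described below. Of the 5 immune markers only CD68 was over 1 CPM on average. Their sum was 0.455 to 1.14 CPM in control, 2.57 to 2.85 in knockout, 0.971 to 1.27 in add-back, 6.60 to 7.10 in vehicle and 6.16 to 8.32 in LY500307 libraries. CD68 rose in knockout against control (3.19 ± 0.38, adjusted p = 1.24e-06) and fell in add-back against knockout (-1.11 ± 0.27, adjusted p = 0.00599). The part of these markers in the results was not tested. Further, the 9 stromal and mesenchymal markers summed to 2.88 to 5.31 CPM. Of the 2 tested, 1 was called lower in knockout against control and 1 higher in add-back against knockout, with and without the offsets. In add-back against control 1 was called higher and 1 lower, and only the lower call was kept with the offsets. Both were called lower in vehicle against add-back, 1 of them also with the offsets. Of all genes 46%, 19.6%, 45.8% and 48.1% were called in these 4 comparisons.

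On the TPM scale, which divides counts by transcript length, levels can be compared between genes. MAL2, which carries membrane proteins to the apical surface, was the highest with a mean of 455 TPM over the 15 libraries, followed by the adhesion molecule EPCAM at 408 TPM. Claudins CLDN7 (187 TPM), CLDN1 (139 TPM) and CLDN4 (137 TPM) came among the first 7 of the order, whereas CLDN8 had 9.27 TPM. E-cadherin (CDH1), the classical epithelial cadherin, stood near the bottom of the order, at rank 39 of 46 with 7.50 TPM and a range of 5.22 to 10.2 TPM over the libraries, well under its partners CTNNA1 (155 TPM) and CTNND1 (102 TPM). Among desmosomal cadherins DSG2 (75.2 TPM) and DSC2 (42.4 TPM) were the abundant forms, while DSC3 had 0.598 TPM and DSG3 0.00688 TPM. DSC2 is known less well on this scale, because 21.6% of its counts fell on transcripts with a known length. CLDN3 had the highest ratio of highest to lowest library among the members tested, at 5.14 to 65.2 TPM.

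**Figure D1:**
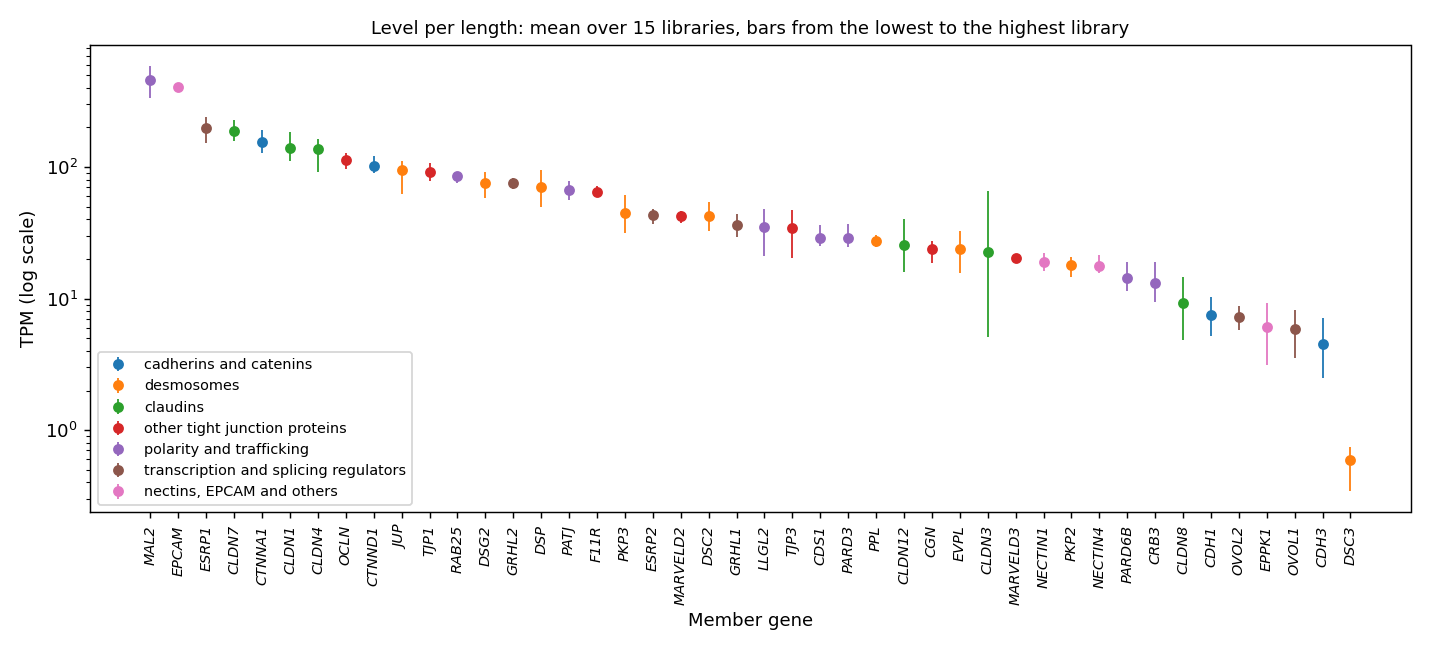
Level per length of 44 members in TPM (log axis), ordered by the mean over 15 libraries (points), with bars from the lowest to the highest library and colours for the roles. MAL2 and EPCAM lead, CDH1 lies among the lowest, and CLDN3 has the longest bar.

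The 5 comparisons touched these genes to different extents. In knockout against control 16 members were called higher and 15 lower of 44 tested, where 46% of all genes tested were called, 23.4% higher and 22.6% lower. The median log2 fold change of the members was 0.05, against 0.00 for all genes. Add-back against knockout gave 14 members higher and 2 lower, where 19.6% of all genes were called, 10.4% higher and 9.19% lower. Add-back against control gave 16 higher and 8 lower (45.8% of all genes called, 23.2% and 22.7%), vehicle against add-back 20 higher and 13 lower (48.1%, 26.4% and 21.6%), and LY500307 against vehicle 5 higher and 2 lower (7.12%, 4.77% and 2.35%). Comparisons share libraries: the knockout group enters both of the first and the control and add-back groups enter more than 1, so their values are set side by side below and their likeness is not a result.

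**Figure D2:**
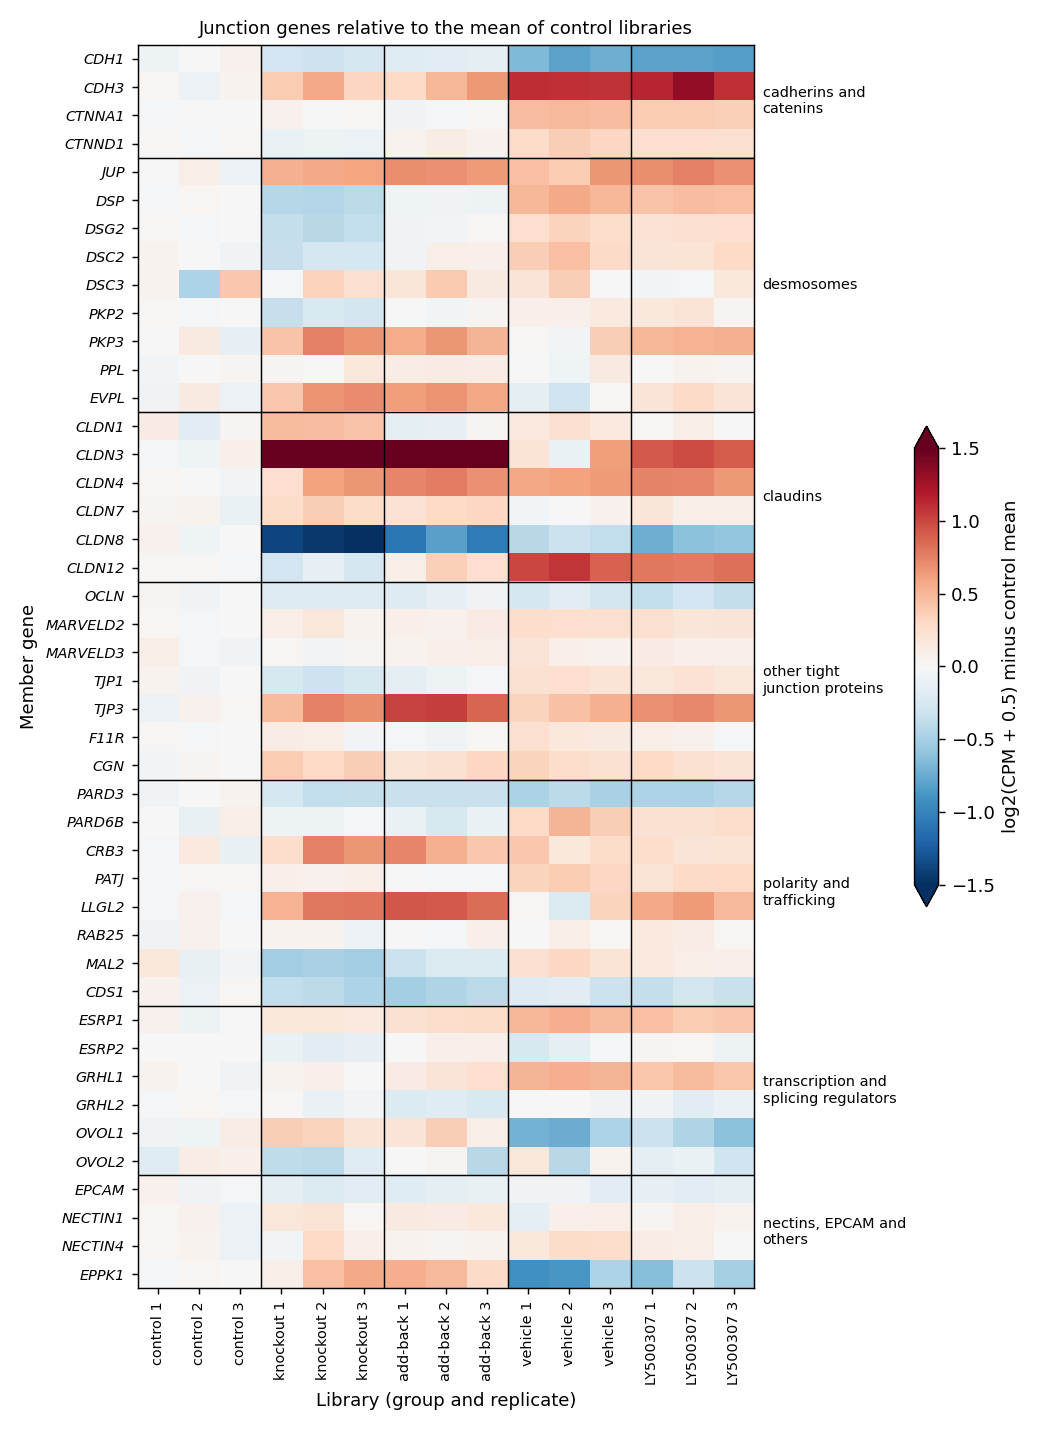
Log2(CPM + 0.5) of the 44 tested members in each of 15 libraries, minus the mean of the control libraries of the same gene, grouped by role (red higher, blue lower, colours end at 1.5). CLDN3 is red in the knockout and add-back libraries, CLDN8 blue, and DSP, DSG2, DSC2 and PKP2 are bluest in the knockout libraries.

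Base composition moved with these differences. Of the 21 tested members with a GC content of at least 50%, 13 were called higher and 2 lower in knockout against control, and of the 23 members under 50%, 3 were called higher and 13 lower. Across the 44 members Spearman's rho between GC content and log2 fold change was 0.68, and across 19089 genes with a known GC content it was 0.38. Genes are not independent replicates, and every point rests on the same 6 libraries. With offsets that remove each library's smooth trend on GC content and transcript length, the members' rho was 0.16, and 9 members were called higher and 21 lower (42% of all genes called, 16.8% and 25.2%). Of the 16 higher calls 8 were kept (JUP, CLDN1, CLDN3, CLDN4, CLDN7, MARVELD2, CGN and ESRP1), 5 were lost (CDH3, TJP3, CRB3, LLGL2 and OVOL1), and PKP3, EVPL and EPPK1 were called lower instead. Of the 15 lower calls 14 were kept, and only CLDN12 was lost. Add-back against knockout had no such slope (rho -0.20 over the members), and with the offsets it kept all 16 of its calls and had 17 members higher and 2 lower (23.2% of all genes called, 15% and 8.18%). Add-back against control had 14 higher and 12 lower with the offsets (41.5%, 19.2% and 22.3%). Whether the trend arose in the cells or in the libraries was not tested, and values with the offsets are given below beside plain ones for many of the calls that differ.

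**Figure D3:**
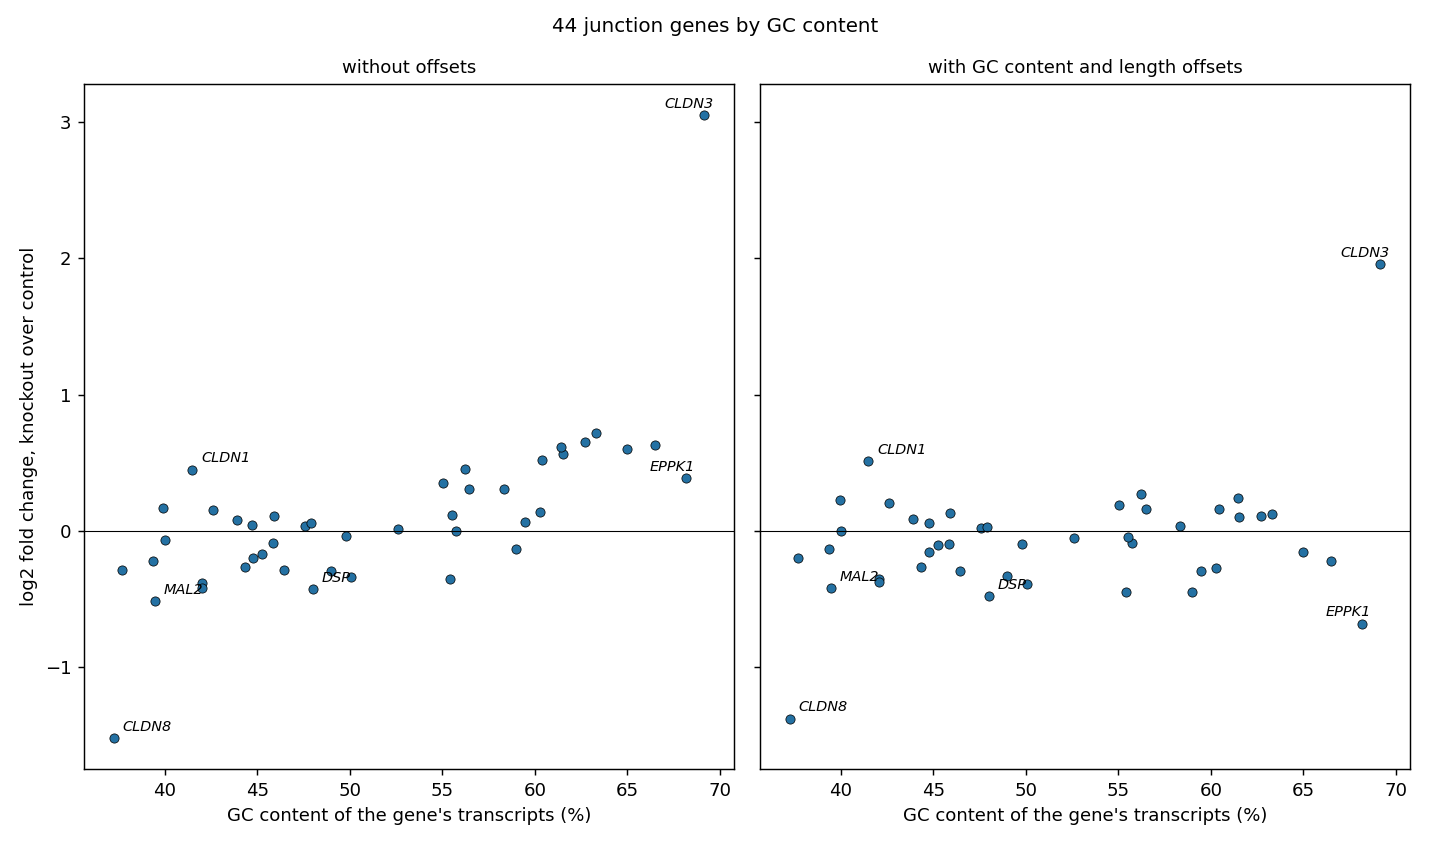
Log2 fold change of knockout over control for 44 junction genes against the GC content of their transcripts, without (left) and with (right) offsets for GC content and length. The upward slope on the left (rho 0.68) is nearly gone on the right (rho 0.16), where CLDN3 stays the highest and CLDN8 the lowest.

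Among cadherins and catenins, CDH1 fell and P-cadherin (CDH3) rose in knockout cells, though the CDH3 call did not outlast the offsets. CDH1 was at 24.3, 25.8 and 27.0 CPM in the control libraries, 21.0, 20.5 and 21.5 in knockout, 22.6, 22.8 and 23.3 in add-back, 16.0, 14.5 and 15.2 in vehicle and 14.5, 14.5 and 14.2 in LY500307 libraries. All knockout libraries lay under all control libraries, add-back libraries lay between the groups, and the libraries in charcoal-treated serum were the lowest of all. The CDH1 log2 fold change was -0.29 ± 0.06, adjusted p = 0.000391 for knockout against control, 0.12 ± 0.06, adjusted p = 0.179 for add-back against knockout and -0.17 ± 0.06, adjusted p = 0.0204 for add-back against control. With the offsets the rise from knockout to add-back was also called (0.18 ± 0.06, adjusted p = 0.0273). The call between add-back and control was lost without control 2, control 3 or any 1 add-back library (adjusted p up to 0.188). CDH3, which lies 14.6 kb from CDH1 on chromosome 16, went from a mean of 5.34 ± 0.297 CPM in control libraries to 7.36 ± 0.702 with the knockout and 7.70 ± 1.01 with the add-back (log2 fold change 0.45 ± 0.12, adjusted p = 0.00453 for knockout against control). With the offsets the latter was 0.27 ± 0.12, adjusted p = 0.0878.

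Of the catenins, CTNNA1 was called in none of the comparisons of untreated groups and CTNND1 in all 3. CTNNA1 (α-catenin), the link from the cadherin complex to actin, was at 295, 300.0 and 298 CPM in the control libraries, 311, 299 and 304 in knockout, 286, 295 and 301 in add-back, 409, 419 and 409 in vehicle and 388, 388 and 382 in LY500307 libraries. Its untreated groups overlapped, and both groups in charcoal-treated serum lay above them. CTNND1 (p120-catenin), which keeps cadherins at the membrane, was at 316, 307 and 315 CPM in the control libraries, 293, 296 and 295 in knockout, 323, 338 and 328 in add-back, 378, 403 and 387 in vehicle and 372, 373 and 370.4 in LY500307 libraries. Knockout libraries were the lowest and add-back libraries the highest of the untreated ones, with no overlap, but by small steps: -0.09 ± 0.03, adjusted p = 0.0246 for knockout against control, 0.16 ± 0.03, adjusted p = 0.000673 for add-back against knockout and 0.08 ± 0.03, adjusted p = 0.0479 for add-back against control. The first call was lost without control 1, control 3 or any 1 knockout library (adjusted p up to 0.0884), and the last without control 2 or add-back 2 (adjusted p up to 0.0906).

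Of the 9 desmosomal genes tested, 4 were called lower and 3 higher in knockout against control, where 46% of all genes were called. With the offsets 7 were called lower and 1 higher, where 42% of all genes were called. In add-back against knockout edgeR called 4 higher and none lower, where 19.6% were called, and with the offsets 5 higher and none lower (23.2%). Desmoplakin (DSP), the protein that anchors keratin filaments, desmoglein 2 (DSG2) and desmocollin 2 (DSC2), its main adhesive cadherins in simple epithelia, and plakophilin 2 (PKP2), a plaque protein, were each lower in knockout cells than in control cells and higher again in add-back cells. DSP (chr6:7541575-7586717, plus strand, GRCh38 with GENCODE annotation) was at 343, 358 and 351 CPM in the control libraries, 261, 258 and 264 in knockout, 337, 338 and 333 in add-back, 496, 519 and 495 in vehicle and 473, 482 and 479 in LY500307 libraries. Each knockout library lay under every other library, add-back libraries lay just under the control libraries, and vehicle and LY500307 libraries were the highest. DSP was 1.34-fold lower in knockout than in control (log2 fold change -0.43 ± 0.03, adjusted p = 4.77e-10), 1.29-fold higher in add-back than in knockout (0.36 ± 0.03, adjusted p = 2.23e-08), and add-back against control was not called (-0.06 ± 0.03, adjusted p = 0.0835).

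DSG2 (chr18:31498043-31549008, plus strand) was at 261, 254 and 259 CPM in the control libraries, 201, 192 and 199.7 in knockout, 248, 251 and 261 in add-back, 307, 324 and 310.4 in vehicle and 299.7, 304 and 308 in LY500307 libraries. Add-back and control libraries overlapped, and knockout libraries lay under both. The log2 fold changes were -0.38 ± 0.03, adjusted p = 1.23e-08 for knockout against control, 0.36 ± 0.03, adjusted p = 1.63e-07 for add-back against knockout and -0.03 ± 0.03, adjusted p = 0.532 for add-back against control. DSC2 (chr18:31058840-31102522, minus strand) had means of 116 ± 4.45, 95.4 ± 3.29 and 119.6 ± 6.21 CPM in control, knockout and add-back libraries, a log2 difference of -0.29 ± 0.05, adjusted p = 0.000109 and then 0.33 ± 0.05, adjusted p = 9.85e-05. PKP2 was at 44.4 ± 0.461, 36.5 ± 1.53 and 44.5 ± 1.39 CPM in the same groups, with -0.29 ± 0.05, adjusted p = 0.000167 and 0.29 ± 0.05, adjusted p = 0.000538. For these 4 genes all calls of both comparisons were kept with the offsets, DSP for instance at -0.48 and 0.44, and DSC2 was then also called higher in add-back than in control (0.14 ± 0.04, adjusted p = 0.0168). The GC content and length used for DSC2 rest on the 21.6% of its counts on transcripts with a known length (62.2% for OCLN, below).

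DSG2 and DSC2 share the desmosomal cadherin cluster on chromosome 18 with DSG3 and DSC3, and both neighbours were low. DSC3, 16 kb from DSC2, had mean levels of 2.24 ± 0.802 CPM in control and 2.55 ± 0.383 CPM in knockout libraries and was called in no comparison. DSG3, 19.3 kb from DSG2, had 0.142, 0.0761 and 0 CPM in the knockout libraries and 0 in the control libraries.

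The promoters of the 3 desmosomal genes that moved together and had an entry among the RefSeq promoters (GRCh38.p14, 250 bases before to 50 after the start) are printed because these genes fell and rose in the same comparisons. Capitals mark the E-box CAGGTG on either strand, the core bound by SNAI and ZEB repressors, and in DSC2 also AGGTCA on either strand, a single arm of the estrogen response element. They lie at chr6:7541421-7541720 on the plus strand, at chr18:31497927-31498226 on the plus strand and at chr18:31102372-31102671 on the minus strand.
DSP: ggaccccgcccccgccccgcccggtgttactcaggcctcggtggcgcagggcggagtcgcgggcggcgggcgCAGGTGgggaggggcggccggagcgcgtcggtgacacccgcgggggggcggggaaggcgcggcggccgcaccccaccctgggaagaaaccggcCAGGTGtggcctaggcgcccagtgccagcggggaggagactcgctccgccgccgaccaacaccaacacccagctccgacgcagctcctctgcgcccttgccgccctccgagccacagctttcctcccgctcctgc
DSG2: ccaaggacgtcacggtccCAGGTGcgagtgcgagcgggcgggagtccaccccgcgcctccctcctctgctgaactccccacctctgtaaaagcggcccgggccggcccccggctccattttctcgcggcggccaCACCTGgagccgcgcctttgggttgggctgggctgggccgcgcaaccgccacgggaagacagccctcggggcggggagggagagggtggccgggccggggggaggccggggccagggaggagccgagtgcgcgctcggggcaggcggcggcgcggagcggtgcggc
DSC2: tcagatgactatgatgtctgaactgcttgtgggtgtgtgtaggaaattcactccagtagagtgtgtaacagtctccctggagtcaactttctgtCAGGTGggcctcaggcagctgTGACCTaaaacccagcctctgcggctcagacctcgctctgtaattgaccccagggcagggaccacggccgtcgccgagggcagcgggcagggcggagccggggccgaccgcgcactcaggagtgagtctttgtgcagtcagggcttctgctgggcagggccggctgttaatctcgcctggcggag
The DSP window held 2 E-boxes, at -178 and -85 from the start, DSG2 held 2, at -232 and -116, and the DSC2 window shown held 1 at -156 and a single arm at -135. A second DSC2 promoter entry, at chr18:31101211-31101510 and not printed, held neither. Entries existed for 24 of the 46 members (35 promoters). An E-box of these letters was in 15 of the 35, against 20.6% of all 35116 promoters, and a single arm in 7 of the 35, against 13.8%. The full palindromic estrogen response element (in 0.057% of all promoters) and the grainyhead-like motif AACCGGTT (in 0.134%) had no match in the 35 windows. Such matches describe letters and not bound sites.

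Without the offsets, plakoglobin, plakophilin 3, envoplakin and periplakin took other courses. With them, only plakoglobin did so in knockout against control, and the other 3 were called lower. Plakoglobin (JUP), shared by desmosomes and adherens junctions, was at 131, 141 and 124 CPM in the control libraries, 191, 196 and 199 in knockout, 213, 212 and 206 in add-back, 179, 172 and 208 in vehicle and 213, 222 and 212 in LY500307 libraries. All knockout and add-back libraries lay above all control libraries. The log2 fold change was 0.57 ± 0.06, adjusted p = 1.30e-07 for knockout against control, 0.11 ± 0.06, adjusted p = 0.199 for add-back against knockout and 0.68 ± 0.06, adjusted p = 1.52e-08 for add-back against control. JUP has a GC content of 61.5%, and with the offsets the first value was 0.10 ± 0.04, adjusted p = 0.042 and the second was called (0.13 ± 0.04, adjusted p = 0.0215). The first call was lost when a replicate block (a term for replicate number) was added to the offsets. Plakophilin 3 (PKP3) was at 52.3, 57.7 and 48.1 CPM in the control libraries, 70.8, 89.5 and 84.0 in knockout, 77.3, 83.6 and 75.2 in add-back, 53.2, 51.3 and 68.2 in vehicle and 74.3, 75.7 and 76.3 in LY500307 libraries. Envoplakin (EVPL), a plakin of the cornified envelope, was at 73.1, 83.7 and 71.5 CPM in the control libraries, 101, 122 and 124 in knockout, 117, 122 and 114 in add-back, 68.8, 61.5 and 77.4 in vehicle and 86.8, 93.0 and 87.0 in LY500307 libraries. Both were higher in all knockout and add-back libraries than in all control libraries (knockout against control 0.63 ± 0.09, adjusted p = 1.78e-05 for PKP3 and 0.60 ± 0.08, adjusted p = 4.28e-06 for EVPL), but their GC contents are 66.5% and 65.0%, and with the offsets both were called lower (-0.22 ± 0.05, adjusted p = 0.00223 and -0.16 ± 0.04, adjusted p = 0.00321). Periplakin (PPL), the partner of envoplakin, was called in no comparison, though with the offsets it was called lower in knockout cells (-0.29 ± 0.04, adjusted p = 1.27e-05).

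**Figure D4:**
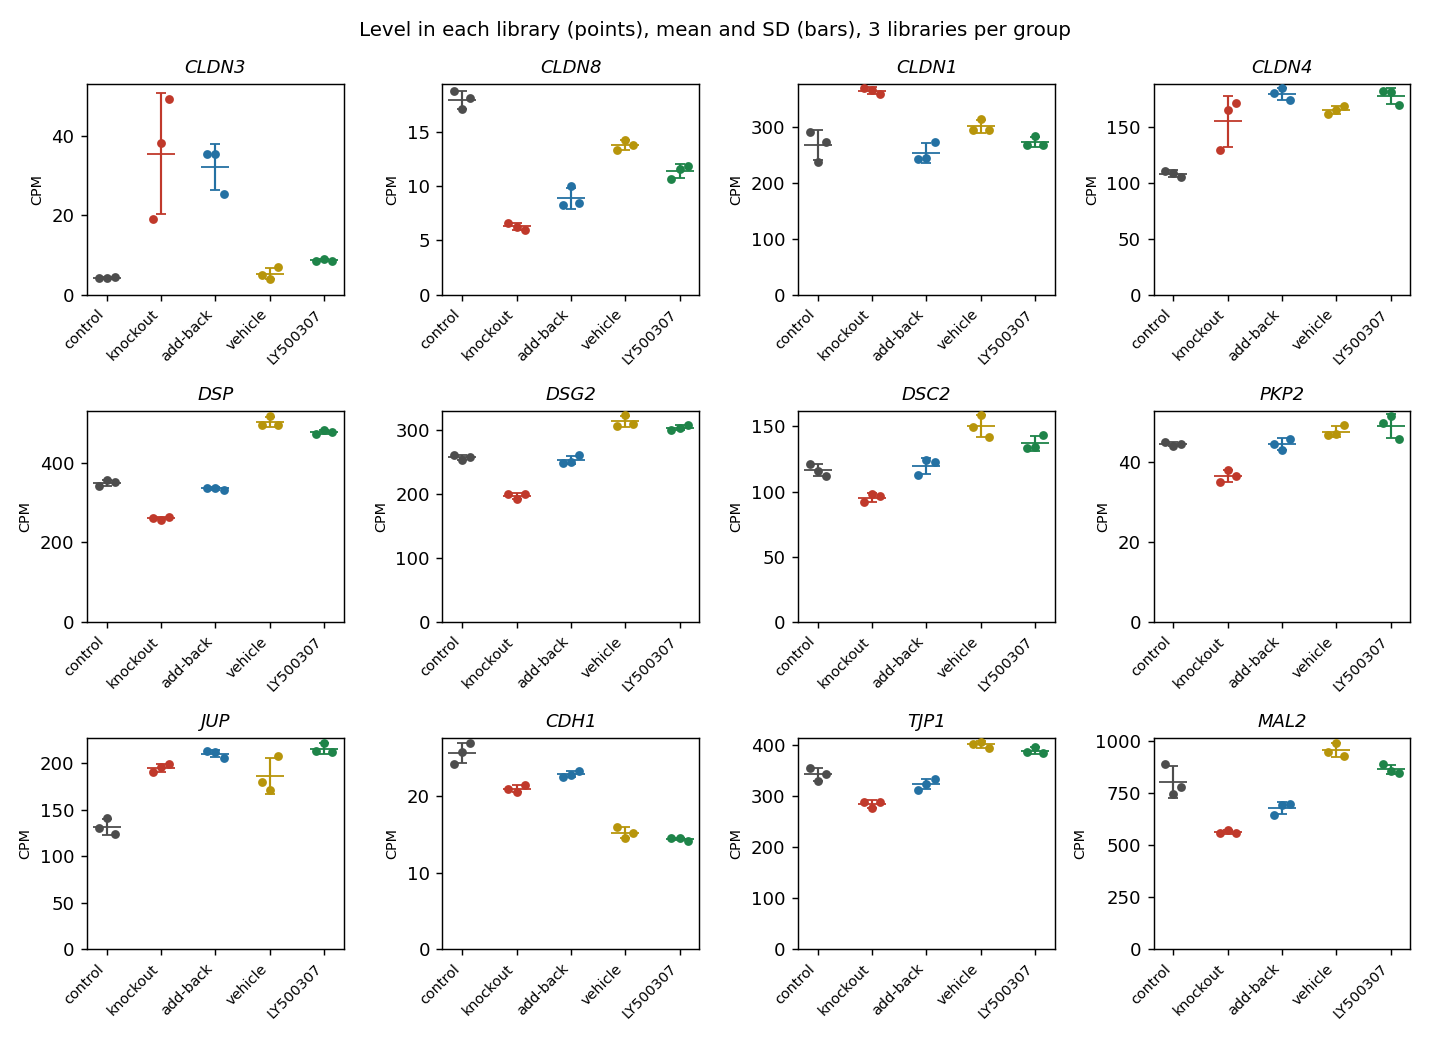
CPM in each library (points) with the mean and SD (bars) of 3 libraries per group for 12 members, each axis starting at 0. DSP, DSG2, DSC2, PKP2, TJP1 and MAL2 are lowest in the knockout libraries, CLDN1 is highest there, and CLDN3 is high in both untreated groups made from knockout cells.

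Claudins, which form the strands of the tight junction, moved in both directions: of 6 tested, 4 were called higher and 2 lower in knockout against control, where 46% of all genes were called. With the offsets 4 were called higher and 1 lower, where 42% of all genes were called. CLDN3, CLDN4, CLDN7 and CLDN1 were higher in knockout than in control cells and CLDN8 and CLDN12 lower. CLDN3 (chr7:73768997-73770270, minus strand) was at 4.24, 4.07 and 4.55 CPM in the control libraries, 19.0, 38.2 and 49.2 in knockout, 35.5, 35.2 and 25.3 in add-back, 5.03, 3.95 and 6.88 in vehicle and 8.54, 8.94 and 8.45 in LY500307 libraries. Knockout 1 lay well under knockout 2 and knockout 3, yet every knockout and add-back library lay above every control, vehicle and LY500307 library. CLDN3 was 8.30-fold higher in knockout than in control (log2 fold change 3.05 ± 0.29, adjusted p = 5.42e-08) and 7.45-fold higher in add-back than in control (2.90 ± 0.29, adjusted p = 1.43e-07), while add-back and knockout libraries overlapped (-0.16 ± 0.21, adjusted p = 0.665). Its GC content of 69.2% is the highest of the members tested, and with the offsets the knockout against control difference was 1.96 ± 0.18, adjusted p = 2.05e-08.

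CLDN4 (chr7:73799542-73832693, plus strand), the neighbour of CLDN3 at 29.3 kb and like it a claudin of tight epithelia, was at 110.5, 109 and 105 CPM in the control libraries, 129, 165 and 171 in knockout, 179.9, 184 and 174 in add-back, 162, 165 and 169 in vehicle and 182, 181 and 169 in LY500307 libraries. Every library of the other 4 groups lay above the control libraries. The log2 fold change was 0.52 ± 0.07, adjusted p = 5.34e-06 in knockout against control, where the offsets left 0.16 ± 0.06, adjusted p = 0.0285, and 0.21 ± 0.07, adjusted p = 0.037 in add-back against knockout. The latter call was lost without knockout 1, add-back 1 or add-back 2 (adjusted p up to 0.108). The CLDN3 and CLDN4 promoters are shown because these neighbours rose by 3.05 and 0.52 on the log2 scale in knockout cells, a difference in size that was not tested. They lie at chr7:73770221-73770520 on the minus strand and at chr7:73830746-73831045 on the plus strand (GRCh38.p14), and capitals mark an E-box in CLDN3 and AGGTCA in CLDN4.
CLDN3: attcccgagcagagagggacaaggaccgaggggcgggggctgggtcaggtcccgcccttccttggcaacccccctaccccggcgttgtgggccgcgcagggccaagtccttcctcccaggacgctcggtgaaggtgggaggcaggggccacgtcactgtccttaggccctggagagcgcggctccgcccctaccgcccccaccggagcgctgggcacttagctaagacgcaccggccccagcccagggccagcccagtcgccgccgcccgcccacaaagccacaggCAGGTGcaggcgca
CLDN4: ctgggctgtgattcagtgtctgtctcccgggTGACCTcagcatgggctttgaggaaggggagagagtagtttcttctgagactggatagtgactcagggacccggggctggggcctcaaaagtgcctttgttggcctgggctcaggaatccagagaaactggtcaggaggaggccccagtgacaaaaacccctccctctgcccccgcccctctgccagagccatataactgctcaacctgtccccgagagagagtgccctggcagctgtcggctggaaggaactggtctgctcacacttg
The CLDN3 window held 1 E-box, at 36 bases after the start, and no AGGTCA. The CLDN4 window held no E-box and 1 AGGTCA at -219.

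CLDN1 (chr3:190305701-190322475, minus strand), needed for the barrier of many epithelia, rose in knockout cells and fell in add-back cells. It was at 289.8, 237 and 273 CPM in the control libraries, 369.6, 365 and 358 in knockout, 242, 243 and 273 in add-back, 295, 314 and 294 in vehicle and 268, 283 and 267 in LY500307 libraries. The 3 knockout libraries were the highest of all 15, and add-back libraries overlapped the control libraries. The log2 fold change was 0.45 ± 0.06, adjusted p = 2.87e-06 for knockout against control, -0.53 ± 0.06, adjusted p = 1.92e-06 for add-back against knockout and -0.08 ± 0.06, adjusted p = 0.297 for add-back against control. With the offsets the first 2 were 0.51 and -0.50. CLDN7 was at 150.2, 151 and 136 CPM in the control libraries, 176, 188 and 177 in knockout, 169, 179 and 181 in add-back, 141, 145 and 153 in vehicle and 165, 155 and 156 in LY500307 libraries. Knockout and add-back libraries lay above all control libraries by a small margin (0.31 ± 0.05, adjusted p = 1.84e-05 for knockout against control and 0.28 ± 0.05, adjusted p = 5.58e-05 for add-back against control).

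CLDN8 (chr21:30214006-30216073, minus strand), a claudin best known from the kidney, had the largest fall of the members tested in knockout against control, with and without the offsets. It was at 18.7, 17.1 and 18.1 CPM in the control libraries, 6.63, 6.24 and 5.94 in knockout, 8.22, 10.00 and 8.43 in add-back, 13.3, 14.2 and 13.8 in vehicle and 10.6, 11.5 and 11.9 in LY500307 libraries. The groups did not overlap in any of the 5 comparisons. CLDN8 was 2.87-fold lower in knockout than in control (log2 fold change -1.52 ± 0.09, adjusted p = 1.04e-10), 1.42-fold higher in add-back than in knockout (0.51 ± 0.10, adjusted p = 0.00104) and still 2.01-fold lower in add-back than in control (-1.01 ± 0.08, adjusted p = 1.46e-08). CLDN12, which lacks the tail that binds zonula occludens proteins, changed by -0.22 ± 0.07, adjusted p = 0.0124 in knockout against control and by 0.46 ± 0.07, adjusted p = 5.28e-05 in add-back against knockout. The first of these calls was lost without knockout 1 or knockout 3 (adjusted p up to 0.0587) and with the offsets (-0.13 ± 0.07, adjusted p = 0.125).

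**Figure D5:**
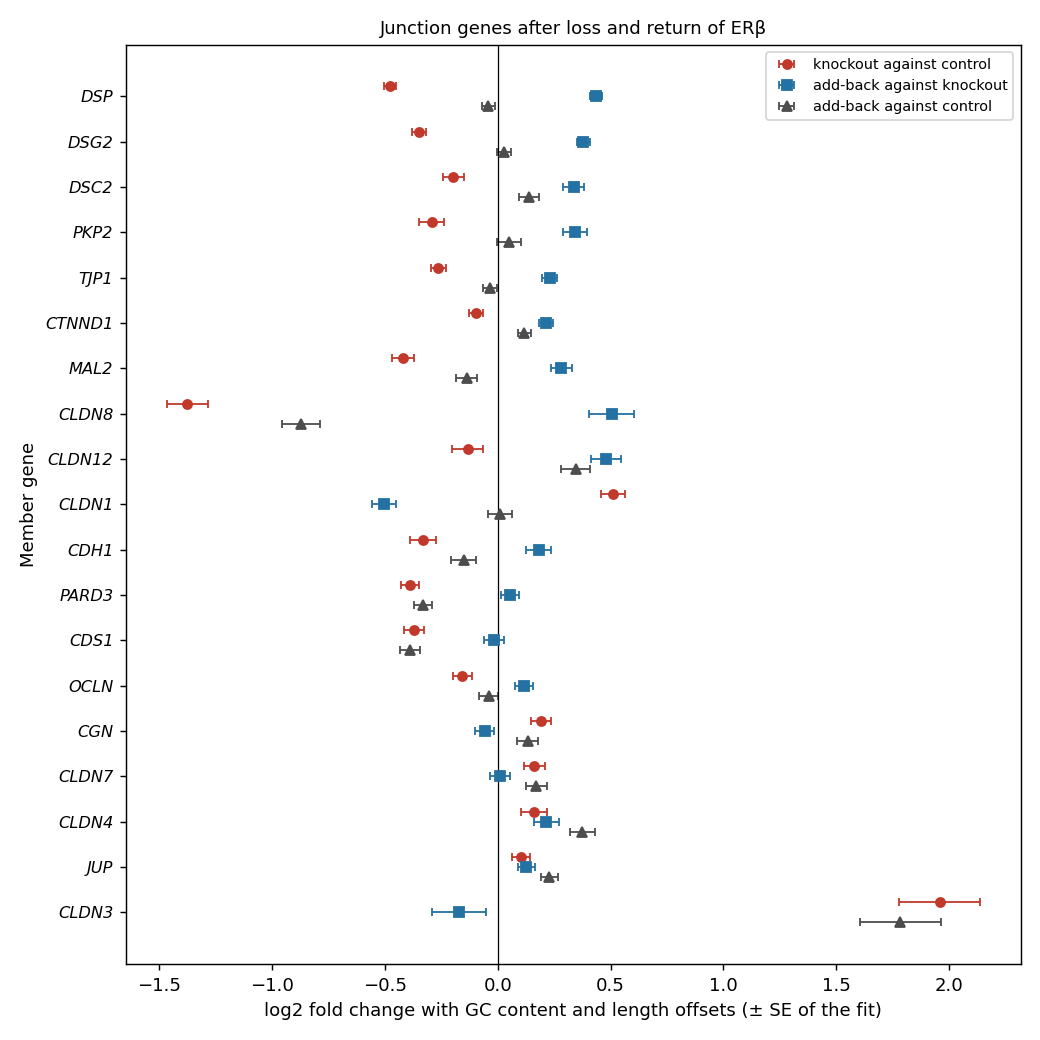
Log2 fold changes with GC content and length offsets (± SE of the fit) of 19 members for knockout against control (circles), add-back against knockout (squares) and add-back against control (triangles). DSP, DSG2 and PKP2 lie left of 0, right of 0 and near 0 in this order, CLDN1 is the mirror image, and for PARD3, CDS1 and CLDN3 the circle and the triangle lie close together.

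Of the other tight junction proteins, TJP1 (ZO-1), the scaffold that ties claudins to actin, fell in knockout cells and rose in add-back cells. TJP1 was at 354, 329 and 343 CPM in the control libraries, 288, 276 and 288 in knockout, 312, 324 and 334 in add-back, 402, 406 and 394 in vehicle and 385, 396 and 385 in LY500307 libraries. Knockout libraries lay under all other libraries, and the add-back libraries overlapped the control libraries. The log2 fold changes were -0.27 ± 0.03, adjusted p = 2.64e-06 for knockout against control, 0.19 ± 0.03, adjusted p = 0.000572 for add-back against knockout and -0.08 ± 0.03, adjusted p = 0.0583 for add-back against control. Occludin (OCLN) was at 204, 193 and 201 CPM in the control libraries, 174, 174 and 175 in knockout, 174, 182 and 193 in add-back, 167, 179 and 165 in vehicle and 154, 164 and 156 in LY500307 libraries. It was lower in knockout than in control (-0.20 ± 0.04, adjusted p = 0.000794). Add-back libraries overlapped both groups (0.07 ± 0.04, adjusted p = 0.267 against knockout and -0.12 ± 0.04, adjusted p = 0.0216 against control). The latter call was lost without control 1, control 3, add-back 1 or add-back 2, with an adjusted p up to 0.231, and with the offsets.

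TJP3 (ZO-3), a scaffold of epithelia, was at 36.4, 40.3 and 39.3 CPM in the control libraries, 54.0, 65.4 and 63.2 in knockout, 78.5, 79.7 and 71.4 in add-back, 49.0, 52.6 and 56.0 in vehicle and 62.6, 64.1 and 61.3 in LY500307 libraries. Control libraries were the lowest and add-back libraries the highest, with no overlap among the untreated groups. The log2 fold change was 0.65 ± 0.07, adjusted p = 2.65e-07 for knockout against control and 0.33 ± 0.06, adjusted p = 0.000987 for add-back against knockout. With the offsets the first was 0.11 ± 0.05, adjusted p = 0.0857 and the second 0.34 ± 0.04, adjusted p = 1.03e-05. Junctional adhesion molecule A (F11R) was at 172, 168 and 171 CPM in the control libraries, 184, 182 and 166 in knockout, 166, 165 and 174 in add-back, 201, 190.4 and 187 in vehicle and 181, 179 and 169 in LY500307 libraries. Its untreated groups overlapped, and no comparison between them was called. Cingulin (CGN), a cytoplasmic plaque protein, was higher in knockout (0.35 ± 0.05, adjusted p = 2.81e-06) and in add-back cells (0.25 ± 0.04, adjusted p = 0.000151) than in control cells. Tricellulin (MARVELD2), which lies 48 kb from OCLN and seals the corners between 3 cells, had 0.11 ± 0.04, adjusted p = 0.0376 for knockout against control, a call lost without control 2, control 3, knockout 1 or knockout 2 (adjusted p up to 0.173). With the offsets it was also higher in add-back than in control (0.17 ± 0.04, adjusted p = 0.00277). MARVELD3 was called in no comparison.

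Among polarity and membrane traffic genes, MAL2, PARD3 and CDS1 fell in knockout cells. MAL2 was at 893, 745 and 779 CPM in the control libraries, 558, 572 and 559.8 in knockout, 645, 694 and 698 in add-back, 950.4, 994 and 927 in vehicle and 889, 859 and 848 in LY500307 libraries. Knockout libraries were the lowest of all 15, and add-back libraries lay between knockout and control with no overlap. MAL2 was 1.43-fold lower in knockout than in control (log2 fold change -0.52 ± 0.05, adjusted p = 6.22e-08) and 1.21-fold higher in add-back than in knockout (0.27 ± 0.05, adjusted p = 0.000559), with add-back still under control (-0.25 ± 0.05, adjusted p = 0.000379). CDS1, an enzyme of phospholipid synthesis, was at 98.8, 88.8 and 96.9 CPM in the control libraries, 73.3, 71.8 and 68.4 in knockout, 66.4, 69.3 and 71.7 in add-back, 82.6, 84.6 and 75.9 in vehicle and 74.0, 78.2 and 75.0 in LY500307 libraries. Add-back libraries overlapped knockout libraries and both lay under control libraries (-0.42 ± 0.05, adjusted p = 1.59e-06 for knockout against control and -0.04 ± 0.05, adjusted p = 0.647 for add-back against knockout). PARD3, a core scaffold of the apical PAR complex, did the same, with means of 87.4 ± 3.18, 69.4 ± 2.99 and 69.3 ± 0.266 CPM in control, knockout and add-back libraries (-0.33 ± 0.04, adjusted p = 2.45e-06 for knockout against control and 0.00 ± 0.04, adjusted p = 0.978 for add-back against knockout).

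LLGL2, a basolateral polarity protein of the Scribble module, was at 42.1, 45.1 and 42.2 CPM in the control libraries, 62.1, 74.9 and 75.8 in knockout, 82.8, 81.9 and 77.6 in add-back, 43.5, 37.1 and 54.5 in vehicle and 64.3, 67.7 and 60.8 in LY500307 libraries. Knockout and add-back libraries lay above control libraries (0.72 ± 0.10, adjusted p = 6.33e-06 for knockout against control), but its GC content is 63.3% and with the offsets the difference was 0.12 ± 0.06, adjusted p = 0.104, while add-back against knockout was then called (0.19 ± 0.06, adjusted p = 0.0152). CRB3, the apical Crumbs protein, rose by 0.61 ± 0.14 (adjusted p = 0.00116) and with the offsets was at 0.24 ± 0.12, adjusted p = 0.133. PATJ, a scaffold of the Crumbs complex, was at 228, 237 and 236 CPM in the control libraries, 247, 244 and 249 in knockout, 234, 230.2 and 230.0 in add-back, 295, 305 and 289 in vehicle and 269, 285 and 287 in LY500307 libraries. Its untreated groups were not called apart, except that with the offsets knockout lay above control (0.09 ± 0.03, adjusted p = 0.0307), and both groups in charcoal-treated serum were higher. PARD6B was called in none of the 3 untreated comparisons, and RAB25, a small GTPase of apical recycling, in none of the 5 without the offsets and in vehicle against add-back with them (0.19 ± 0.05, adjusted p = 0.0088).

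Of the 6 epithelial transcription and splicing regulators, 2 were called higher and 1 lower in knockout against control, where 46% of all genes were called. With the offsets 1 was called higher and 3 lower, where 42% of all genes were called. ESRP1, which sets the epithelial pattern of splicing, was at 353, 321 and 339 CPM in the control libraries, 377, 378 and 374 in knockout, 396, 406 and 408 in add-back, 479, 493 and 471 in vehicle and 460.1, 440.0 and 446 in LY500307 libraries. The groups rose in steps from control to knockout to add-back with no overlap (0.16 ± 0.03, adjusted p = 0.000737 and then 0.10 ± 0.03, adjusted p = 0.0413), the second step being lost without knockout 3, add-back 2 or add-back 3 (adjusted p up to 0.0678). ESRP2, its paralog, was at 93.2, 92.8 and 92.9 CPM in the control libraries, 86.4, 82.3 and 85.5 in knockout, 92.6, 98.1 and 98.4 in add-back, 78.6, 84.3 and 91.5 in vehicle and 95.8, 94.9 and 88.3 in LY500307 libraries. Knockout libraries were lower than control (-0.13 ± 0.05, adjusted p = 0.0353) and add-back libraries (0.19 ± 0.05, adjusted p = 0.0115). Without any 1 control or knockout library the first call was lost (adjusted p up to 0.139), and with the offsets it was larger (-0.45 ± 0.05, adjusted p = 1.31e-07).

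GRHL2, a grainyhead-like factor that activates CDH1 and claudin genes, was at 234, 241 and 234 CPM in the control libraries, 239.8, 221 and 230.2 in knockout, 205, 208 and 201 in add-back, 236, 237 and 228 in vehicle and 228, 212 and 220.2 in LY500307 libraries. Control and knockout libraries overlapped (-0.04 ± 0.04, adjusted p = 0.449), though with the offsets GRHL2 was called lower in knockout cells (-0.09 ± 0.04, adjusted p = 0.039). Add-back libraries lay under both (-0.17 ± 0.04, adjusted p = 0.00216 against knockout and -0.21 ± 0.04, adjusted p = 0.000107 against control). GRHL1 rose in add-back against knockout (0.15 ± 0.04, adjusted p = 0.0198), a call lost without knockout 3 or add-back 3 (adjusted p up to 0.0657). OVOL1, a repressor of mesenchymal genes, had 0.31 ± 0.10, adjusted p = 0.0206 for knockout against control, lost without control 1, control 2, knockout 1 or knockout 2 (adjusted p up to 0.0783) and with the offsets. OVOL2 was called in no comparison, though with the offsets it was lower in knockout than in control (-0.45 ± 0.16, adjusted p = 0.0337). Of 10 transcription factors of the opposite, mesenchymal program only TCF4, KLF8 and TWIST2 were over 1 CPM on average. ZEB1, ZEB2, SNAI2 and TWIST1 were under 1 CPM in all 15 libraries. In knockout against control edgeR called 0 of the 4 that passed the filter, with 0 at an unadjusted p under 0.05. In add-back against knockout TCF4 (-0.22 ± 0.06, adjusted p = 0.0125) and KLF8 (-0.34 ± 0.09, adjusted p = 0.0104) fell, 2 of the 4, where 19.6% of all genes were called, 9.19% lower. In add-back against control 1 was called lower (45.8% of all genes called), in vehicle against add-back 1 higher (48.1%) and for LY500307 1 lower (7.12%). Of these last 3 calls only the first was kept with the offsets.

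EPCAM, a homophilic adhesion molecule of epithelia, was at 401, 372 and 381 CPM in the control libraries, 347, 335 and 344 in knockout, 339, 348 and 356 in add-back, 369, 372 and 342 in vehicle and 352, 344 and 350.2 in LY500307 libraries. Knockout and add-back libraries lay under control libraries (-0.17 ± 0.04, adjusted p = 0.000733 for knockout against control and -0.14 ± 0.04, adjusted p = 0.00284 for add-back against control), and with the offsets the second was no longer called (-0.03 ± 0.04, adjusted p = 0.523). Epiplakin (EPPK1), a keratin-binding plakin, was at 57.9, 59.8 and 58.1 CPM in the control libraries, 62.4, 80.6 and 87.0 in knockout, 85.7, 82.6 and 71.7 in add-back, 30.7, 31.9 and 42.2 in vehicle and 37.4, 46.9 and 41.3 in LY500307 libraries. Knockout 1 lay closest to the control libraries. The log2 fold change of 0.39 ± 0.11, adjusted p = 0.00777 was lost without knockout 3 (adjusted p = 0.068) and turned to -0.68 ± 0.06, adjusted p = 1.00e-08 with the offsets, at a GC content of 68.1%. NECTIN1, which starts cell contacts ahead of cadherins, was at 63.3, 64.5 and 58.1 CPM in the control libraries, 69.7, 71.5 and 63.1 in knockout, 68.1, 67.6 and 69.1 in add-back, 56.5, 65.1 and 66.0 in vehicle and 63.8, 66.3 and 64.0 in LY500307 libraries. Its groups overlapped between control and knockout and it was called in no comparison, though with the offsets it was lower in knockout cells (-0.27 ± 0.06, adjusted p = 0.00151). NECTIN4 was called in none of the untreated comparisons.

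Vehicle against add-back compared the same cell line in 2 media, so serum, phenol red, DMSO and time in culture cannot be told apart. Of the desmosomal genes DSP (0.58 ± 0.03, adjusted p = 3.46e-12), DSG2 (0.31 ± 0.03, adjusted p = 1.69e-07) and DSC2 (0.33 ± 0.05, adjusted p = 1.44e-05) rose, and with the offsets DSP was at 0.44, DSG2 at 0.09 and DSC2 at 0.11. CTNNA1 rose by 0.49 ± 0.03 (adjusted p = 5.10e-11), and among cadherins CDH1 fell further (-0.59 ± 0.06, adjusted p = 1.35e-07) as CDH3 rose (0.64 ± 0.10, adjusted p = 3.69e-05). CLDN3 fell from a mean of 32.0 ± 5.81 CPM to 5.29 ± 1.48 CPM, 6.16-fold (-2.62 ± 0.27, adjusted p = 1.70e-07, and -1.42 with the offsets). CLDN12 (0.76 ± 0.06, adjusted p = 5.76e-09) and CLDN8 (0.63 ± 0.09, adjusted p = 6.05e-06) rose. EPPK1 changed by -1.20 ± 0.12 (adjusted p = 7.31e-08), but with the offsets it was at -0.13 ± 0.06, adjusted p = 0.106. OVOL1 fell with and without the offsets (-0.91 plain, -0.71 with them). JUP and PKP3 were called lower without the offsets (-0.18 and -0.46) and higher with them (0.24 and 0.41). Without vehicle 2 the JUP call was lost (adjusted p = 0.0555). With the offsets 19 members were higher and 7 lower, where 42.4% of all genes were called, 20.8% higher and 21.6% lower. All 3 endothelial markers tested rose in vehicle against add-back, KDR by 1.58 ± 0.07, VWF by 1.63 ± 0.14 and CDH5 by 1.81 ± 0.34 (adjusted p = 5.63e-13, 2.07e-08 and 0.000189), as did CD68 (3.09 ± 0.21, adjusted p = 5.86e-10). KDR was at 13.6, 13.0 and 15.5 CPM in add-back and 41.5, 42.7 and 41.6 CPM in vehicle libraries, while PECAM1 stayed under 1 CPM. The 4 endothelial markers, of which 2 were over 1 CPM on average, summed to 16.4 to 18.8 CPM in add-back and 51.9 to 53.2 CPM in vehicle libraries. The part of these markers was not tested.

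LY500307 against vehicle, the only comparison of a ligand, gave 7 calls among these genes. Called higher were LLGL2 (0.52 ± 0.10, adjusted p = 0.00412), PKP3 (0.39 ± 0.09, adjusted p = 0.0137), EVPL (0.36 ± 0.08, adjusted p = 0.0106), TJP3 (0.26 ± 0.07, adjusted p = 0.0228) and JUP (0.21 ± 0.06, adjusted p = 0.0263), and called lower were CLDN8 (-0.28 ± 0.08, adjusted p = 0.0466) and CTNNA1 (-0.10 ± 0.03, adjusted p = 0.0466). The 5 genes called higher have GC contents from 61.5% to 66.5%, and across the 44 members rho between GC content and the log2 fold change was 0.84 (all genes 0.46). With the offsets 1 member was called higher, LLGL2 (0.27 ± 0.06, adjusted p = 0.0237), and none lower, where 1.34% of all genes were called, 0.835% higher and 0.507% lower. Without vehicle 1, vehicle 2 or LY500307 2, edgeR called 1 member higher, without LY500307 1 it called 3, and without vehicle 3 it called 8. LLGL2 was also the only 1 of the 7 whose call was kept when each vehicle or LY500307 library was left out in turn (adjusted p up to 0.0348). The call of CLDN8 was lost without any 1 of the 6 libraries (adjusted p up to 0.214), as was that of CTNNA1 (0.261). Those of JUP (0.159) and TJP3 (0.123) were lost without vehicle 1, vehicle 2, LY500307 1 or LY500307 2, and those of PKP3 (0.111) and EVPL (0.0881) without vehicle 1, vehicle 2 or LY500307 2. DSP, DSG2 and CLDN1 were not called here, with -0.07 ± 0.03 for DSP (adjusted p = 0.122), -0.05 ± 0.03 for DSG2 (0.438) and -0.14 ± 0.06 for CLDN1 (0.156).

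Expected counts per transcript were tested for the isoforms of the members. The members had 378 annotated transcripts, and 205 passed the filter. In knockout against control 27 were called, 19 higher and 8 lower, where 7.99% of all 73285 transcripts tested were called. In add-back against knockout 7 were called, 6 higher and 1 lower, where 1.45% of all were. The fits of transcripts used no offsets for GC content and length. DSP-201, the long form of desmoplakin (9796 bases), had means of 209 ± 6.60, 143 ± 12.5 and 207 ± 10.4 CPM in control, knockout and add-back libraries (log2 fold change -0.55 ± 0.06, adjusted p = 0.000101, then 0.53 ± 0.06, adjusted p = 0.00063). DSP-202, a shorter isoform, was called in neither (-0.12 ± 0.07, adjusted p = 0.414, then 0.21 ± 0.07, adjusted p = 0.248), and the difference between the isoforms was not tested. Transcripts DSG2-201, CLDN1-201, CLDN8-201 and MAL2-204 were called in the direction of their genes in both comparisons. In knockout against control 2 transcripts were called against the call of their gene. CTNND1-225, 1 of these, rose in knockout cells, at 20.0, 5.36 and 17.5 CPM in control libraries, 40.1, 28.9 and 35.1 with the knockout and 41.0, 61.0 and 46.2 with the add-back (1.28 ± 0.34, adjusted p = 0.0405 for knockout against control). For LY500307 against vehicle edgeR called 0 of the 205 (all transcripts 0.0532%), with 26 at an unadjusted p under 0.05, and no other tool was run on transcripts.

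A second list of 62 junction genes outside the set held 43 that passed the filter. In knockout against control 13 were called higher and 10 lower (46% of all genes called), with the offsets 7 and 11 (42%). In add-back against knockout 4 were called higher and 3 lower (19.6%). Those past a log2 fold change of 1 in knockout against control had few counts: CTNNA3 was at 0.303, 0.429 and 0.126 CPM in control and 1.07, 0.381 and 1.10 CPM in knockout libraries (1.60 ± 0.61, adjusted p = 0.0373, with 1 knockout library inside the control range), and CDH5, the cadherin of endothelium, at 0.455, 0.214 and 0.253 and 0.784, 0.837 and 0.796 CPM (1.39 ± 0.41, adjusted p = 0.00941). N-cadherin (CDH2), the cadherin that often replaces CDH1 in mesenchymal cells, had 0 counts in all 15 libraries.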

How the data were processed

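For 15 libraries of stranded, ribosome-depleted total RNA, the deposited values are expected counts from RSEM, not normalised, in a gene table and a transcript table. Per the submitters' processing notes, the authors used RSEM, GSNAP, Trim Galore and FastQC with the GRCh38 build; versions, annotation release and use of strand are not given in the sources used here. Expected counts were rounded. Genes were filtered by edgeR's filterByExpr, scaled by TMM and tested in 1 model of 5 groups by edgeR's quasi-likelihood F test (edgeR 4.0.16, R 4.3.3), two-sided, with Benjamini-Hochberg adjustment over 19516 genes, or over 73285 transcripts (biological coefficient of variation 4.99%). The code was tested on simulated data. GC content, length and positions came from GENCODE 29, which held 58396 of 60664 gene identifiers, so that 19089 tested genes had a GC value. Offsets were natural splines (5 degrees of freedom) of each library's log2 CPM residual. TPM was computed from gene counts and the count-weighted length of annotated transcripts, a change from the planned sum over transcripts, because DSC2 had 21.6% of its counts on them. Depth was 12614050 to 19390386 counts per library. The members, lists and rules were chosen with earlier results of these data known. Genes given by library are those called in knockout against control past a log2 fold change of 1, the 3 with the highest CPM of each role and those called for LY500307; other genes shown by library, among them KDR, were chosen after their values were seen. Alternatives were DESeq2 (1.42.0), RLE and upper-quartile scaling, other filters, offsets, fewer libraries and a replicate block.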

Additional observations from a re-analysis of the deposited data

How the results depend on the processing

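The offsets for GC content and length moved most. With them 9 members were higher in knockout against control (8 with the replicate block added) and 7 lower in vehicle against add-back (7 with GC content offsets alone, 7 with the block added). For LY500307 against vehicle 262 genes were called in place of 1389 (232 with GC content offsets alone, 184 with the block), with 1 member higher and 0 lower under each of these 3. Upper-quartile factors gave 5 members lower in add-back against knockout and 5 lower for LY500307. For LY500307 there were also 9 members higher with no filter on low counts, 1 lower with RLE factors, 0 lower with a minimum of 1 CPM in 3 libraries and 4 lower with DESeq2. Leaving out each of its 6 libraries gave 299 (without vehicle 2) to 1844 genes (without vehicle 3), 1 to 8 members higher and 0 to 1 lower; the cause was not tested. Of the calls without offsets, 25 of 31 in knockout against control, 13 of 16 in add-back against knockout, 21 of 24 in add-back against control, 30 of 33 in vehicle against add-back and 1 of 7 for LY500307 were kept when any 1 library of the comparison was left out. Calls made with the offsets were not checked by leaving out libraries.

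Signs turned under offsets only, given as the log2 fold change with GC content and length, GC content alone, and both with the block. In knockout against control they were -0.22, -0.20 and -0.22 for PKP3, -0.29, -0.24 and -0.30 for PPL, -0.16, -0.0929 and -0.16 for EVPL, -0.27, -0.22 and -0.27 for NECTIN1, and -0.68, -0.60 and -0.68 for EPPK1. In add-back against control they were -0.30, -0.28 and -0.30 for PKP3, -0.22, -0.17 and -0.22 for PPL, -0.14, -0.0792 and -0.14 for EVPL, -0.23, -0.20 and -0.23 for ESRP2, -0.25, -0.19 and -0.25 for NECTIN1, -0.61, -0.58 and -0.61 for EPPK1, and 0.0905 for PATJ with GC content alone. In vehicle against add-back they were 0.24, 0.26 and 0.24 for JUP, 0.41, 0.43 and 0.41 for PKP3, 0.14, 0.20 and 0.14 for PPL, 0.22, 0.24 and 0.22 for CLDN4, 0.0447, 0.0703 and 0.0447 for ESRP2, and 0.17, 0.22 and 0.17 for NECTIN1.

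Replicate numbers did not pair the libraries: residual correlations of same-numbered libraries ran from -0.0952 to 0.0603, with 0 of 30 pairs over 0.1. With the replicate block alone 8807 genes were called in knockout against control in place of 8971, with 15 members higher and 15 lower, and 1 member was lower for LY500307. DSG3 and PKP1 did not pass the filter at these depths (12614050 to 19390386 counts per library) and were not tested.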

Other observations

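Some junction genes outside the set, chosen after their values were seen, also differed between the groups. PERP, a membrane protein of desmosomes, was at 105, 87.8 and 92.6 CPM in control, 66.8, 72.5 and 70.8 CPM in knockout and 102, 116 and 112 CPM in add-back libraries. It fell in knockout against control (log2 fold change -0.44 ± 0.06, adjusted p = 1.11e-05) and rose in add-back against knockout (0.65 ± 0.06, adjusted p = 3.30e-07). Knockout libraries lay under all control and add-back libraries, which overlapped each other. GJB2 (connexin 26), a gap junction channel, went the other way, at 5.53, 4.71 and 3.79 CPM in control, 8.91, 6.70 and 9.25 CPM in knockout and 3.04, 2.38 and 3.32 CPM in add-back libraries (0.84 ± 0.15, adjusted p = 0.000142, then -1.52 ± 0.16, adjusted p = 1.32e-06). CGNL1 (paracingulin) rose in vehicle against add-back (2.75 ± 0.31, adjusted p = 4.31e-07), from 0.906, 0.718 and 0.319 CPM to 5.29, 4.38 and 3.54 CPM.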
